A study of Mus musculus with 12 samples.

Results

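The MYC, MAX and MXD network is a set of transcription factors that share 1 DNA-binding partner. MYC proteins pair with MAX at E-box sequences and drive growth genes such as those of ribosome assembly, while the MXD proteins, MXI1 and MNT pair with the same MAX and recruit SIN3 and histone deacetylases to repress. MGA also binds MAX and is found in a polycomb-type repressor complex. In the intestinal crypt MYC is a target of Wnt signalling and is expressed with proliferation, and MXD1 rises as cells differentiate. All probe sets, the groups of oligonucleotides by which an array measures a transcript, that were annotated to 10 member genes (Myc, Mycn, Mycl, Max, Mxd1, Mxd3, Mxd4, Mxi1, Mnt and Mga) were taken, 25 of the 45101 on the array. Of these, 21 were named by the platform table and 4 by the gene identifier in the deposited descriptions.

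RNA of whole small intestine was hybridised to 12 Affymetrix MOE430_2 arrays, 1 for each mouse, with 3 mice for each of 4 genotypes. Every mouse carried AhCre, a Cre recombinase under an inducible Cyp1a promoter, and had received β-naphthoflavone at 80 mg/kg, by the labels 3 times within 1 day and by the methods daily, so controls were induced too. Tissue was taken at day 5. The genotypes were Cre+Apc+/+p53+/+ (called control), Cre+Apcfl/flp53+/+ (called Apc-deficient), Cre+Apc+/+p53-/- (called p53-deficient) and Cre+Apcfl/flp53-/- (called double-deficient). The p53 allele was null in all tissues of the animal, whereas Apc was lost only where Cre had been active. The mice were adult by the study's text, with exact ages not given in the sources used here.

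Signals are given as scaled signals, that is the linear array signal after every array had been brought to the same mean on the log2 scale. A probe set counted as detected where its detection p, the deposited p-value of its presence on an array, was under 0.05, and it was tested where this p was under 0.2 on at least 1 array. Between 18418 and 23249 probe sets were detected per array. The median unscaled signal was 82.6 to 103 on control arrays and 45.4 to 98.0 on the others, and without scaling the median of all tested probe sets lay 0.67 lower on the log2 scale in Apc-deficient, 0.56 lower in p53-deficient and 0.25 lower in double-deficient than in control intestines, so all changes are relative to the average transcript. One p53 probe set (Trp53 1426538_a_at) read 190.1 to 393 on the 6 arrays with p53 and 3.53 to 15.1, undetected, on the 6 p53-null arrays. A second (1427739_a_at) read 313 to 691 with p53 and 121 to 241 without, and 5 of the null arrays still detected it. The last p53 probe set (1438808_at) ran the other way, at 13.2 to 28.3 and undetected with p53, 17.1 to 49.7 in p53-deficient mice (detected on 1 of 3 arrays) and 58.3 to 84.2 in double-deficient mice (2 of 3). The 4 Apc probe sets do not check the deletion, since their place relative to the deleted part was not examined. From control to Apc-deficient arrays, 1420956_at went from 409 to 479 up to 629 to 761, and 1450056_at from 15.7 to 42.0 up to 80.1 to 150. In the same order 1435543_at read 358 to 468 and 465 to 589, and 1420957_at was lower, at 86.2 to 103 and 49.6 to 73.4. Epithelial markers (Vil1, Cdh1, Epcam, Cdx1, Cdx2, Krt20, Fabp2 and Lgals4) were detected on all 12 arrays. Their level differed between groups, with a summed scaled signal of 35735 to 41738 in control and 51843 to 63371 in p53-deficient intestines. The sum was 33729 to 53221 in Apc-deficient and 28541 to 41328 in double-deficient ones. Pancreatic enzyme transcripts stood apart on 2 arrays: the summed signal of 11 such genes was 71447 in control replicate 3 and 28583 in double-deficient replicate 3, against 784 to 2736 on the other 10.

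Promoter sequence was available for 9 of the 10 members in RefSeq windows of build GRCm38.p6 that run from 250 bases before to 50 bases after each start. Myc was the member without a window, so its promoter was not searched. The E-box CACGTG, bound by MYC-MAX and by MXD-MAX, reads the same on both strands. It was present in 3 of the 11 member windows and in 7.15% of all 32851 windows. The matches were in Mxd4, Mnt and Max, none of which passed the test in any comparison below. They are shown because these genes encode partners or rivals of MYC and hold the network's own binding motif, which is in capitals.
Max (chr12:76962219-76962278, reverse strand): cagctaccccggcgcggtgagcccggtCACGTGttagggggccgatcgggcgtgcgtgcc
Mnt (chr11:74830774-74830833, forward strand): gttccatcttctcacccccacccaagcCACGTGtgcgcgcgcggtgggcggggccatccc
Mxd4 (chr5:34187897-34187956, reverse strand): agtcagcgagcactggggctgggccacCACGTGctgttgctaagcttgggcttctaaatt

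No E-box was found in the windows of Mxd1, the repressor that fell, and Mycl, the activator that rose. For both, the 250 bases before the start are shown. In the first, capitals mark every match on the printed strand to the Sp1-type motif GGGCGG, and also those to the motif of the NF-Y factor, which reads CCAAT. In the second they mark the letters TATAAA, which begin at position −8 from the annotated start. All 3 motifs were chosen after the sequences had been seen.
Mxd1 (chr6:86669160-86669409, reverse strand): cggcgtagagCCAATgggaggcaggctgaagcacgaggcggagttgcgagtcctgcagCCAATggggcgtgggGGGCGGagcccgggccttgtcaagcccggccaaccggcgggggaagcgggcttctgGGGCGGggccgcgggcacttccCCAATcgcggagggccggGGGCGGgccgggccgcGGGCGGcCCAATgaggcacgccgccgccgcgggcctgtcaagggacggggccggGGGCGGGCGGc
Mycl (chr4:122995681-122995930, forward strand): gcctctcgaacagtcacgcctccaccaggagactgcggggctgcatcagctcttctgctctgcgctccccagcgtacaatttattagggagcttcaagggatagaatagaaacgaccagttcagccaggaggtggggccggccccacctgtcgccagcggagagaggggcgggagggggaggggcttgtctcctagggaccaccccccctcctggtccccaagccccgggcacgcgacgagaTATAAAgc
Searched on both strands, these 3 motifs were present, in that order, in 35.7%, 37.4% and 13.6% of all windows. Of the 11 member windows they were in 10, 2 and 1, so GGGCGG is not particular to Mxd1. The Mycl stretch holds it too, unmarked. Mxd1 holds 6 matches to the first, of which the last 2 overlap, and 4 to the second. The TCF/LEF core CTTTGAT, through which β-catenin reaches DNA, was in 3.73% of all windows. It was in 0 of the 11 member windows, which do not include Myc. These are matches of letters and not measured binding.

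Myc and Mycl were higher in Apc-deficient than in control intestines, and Mxd1 and Mxi1 were lower. Of the 23 member probe sets tested, 8 passed an adjusted p of 0.05 in limma's moderated test (5 higher, 3 lower), beside 26.4% of all 36336 probe sets. They belonged to 5 of the 10 genes when each gene was read from its brightest probe set. The median log2 difference of the 23 was −0.20, against 0.00 over all probe sets. Ranges of the 3 control and 3 Apc-deficient arrays did not overlap for 10 of the 23, beside 42.7% of all probe sets.

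Without p53 the same comparison, double-deficient against p53-deficient, shares no array with the first. There 8 of 23 member probe sets passed (4 higher, 4 lower), beside 9.07% of all probe sets, and 14 did not overlap, beside 33.6%. Against control, double-deficient intestines had 10 of 23 past the threshold (5 higher, 5 lower), beside 14.9%. Loss of p53 alone gave 0 of 23, beside 0.344% of all probe sets, and the step from Apc-deficient to double-deficient 0 of 23, beside 0.294%. For the interaction, which asks whether combined loss differs from the sum of the single losses on the log2 scale, the count was 0 of 23, beside 0.011%. In each of these last 3 comparisons 3 of 23 had an unadjusted p under 0.05 in limma's test, beside 15.4%, 16.7% and 14.8% of all probe sets in the same order.

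**Figure D1:**
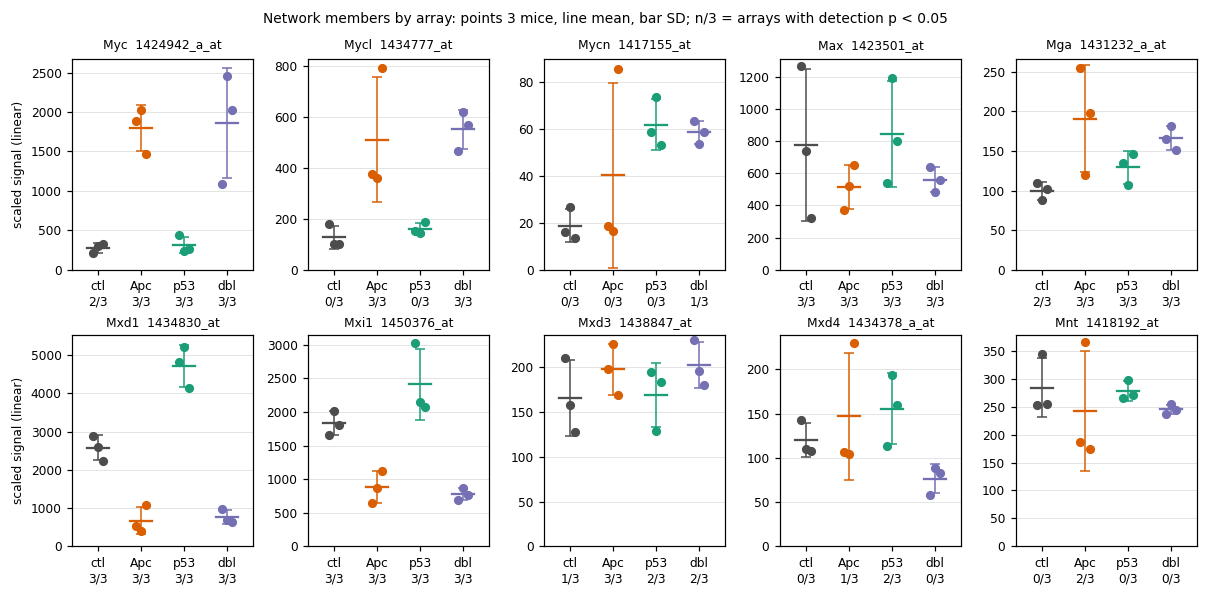
Scaled signal (linear axis) of the brightest probe set of each of the 10 members in control (ctl), Apc-deficient (Apc), p53-deficient (p53) and double-deficient (dbl) intestines, with 1 point for each of 3 mice, the mean as a line and the SD as a bar. Myc and Mycl lie higher, and Mxd1 and Mxi1 lower, on all 6 arrays without Apc than on all 6 with it, while for Max and Mxd3 the groups with and without Apc overlap.

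Myc, the founding member and the oncogene of the family, is read by a single probe set (1424942_a_at). Its scaled signal was 205, 305 and 321 on control arrays and 1890, 2029 and 1469 on Apc-deficient arrays. It was 435, 237 and 268 in p53-deficient and 1087, 2456 and 2029 in double-deficient intestines. The 6 arrays without Apc were all above the 6 with Apc, and the p53-null arrays lay within or near the range of their p53-positive counterparts. Myc was 6.54-fold higher in Apc-deficient intestines (log2 difference 2.71 ± 0.35 SE, limma adjusted p = 0.0011). It was 6.46-fold higher in double-deficient than in control intestines (2.69 ± 0.35, adjusted p = 0.0029) and 5.81-fold higher than in p53-deficient ones (2.54 ± 0.35, adjusted p = 0.0033). These 3 calls held under all 20 alternative settings. For p53 loss the log2 difference of Myc was 0.15 with Apc present (95% interval −0.61 to 0.92) and −0.02 with Apc absent (−0.78 to 0.74).

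Mycl encodes L-MYC, a smaller relative of MYC first found in lung cancer, and has 3 probe sets. On the brightest (1434777_at) it was undetected on every control and p53-deficient array, at 179, 102 and 102 and at 152, 144 and 188. It was detected on every array without Apc, at 375, 361 and 793 in Apc-deficient and at 466, 618 and 567 in double-deficient intestines. The ratio to control was 3.87-fold in Apc-deficient intestines (log2 difference 1.95 ± 0.33 SE, limma adjusted p = 0.0033). It was 4.45-fold in double-deficient ones (2.15 ± 0.33, adjusted p = 0.0053), and 3.41-fold against p53-deficient ones (1.77 ± 0.33, adjusted p = 0.011). These are estimates and not lower bounds, since they are ratios of geometric means that use the undetected signals as read. An undetected signal was to count at no less than its array's lowest signal among probe sets detected throughout that genotype. This limit left the 3 ratios unchanged.

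The other Mycl probe sets moved the same way in all 3 comparisons. On 1422088_at the control arrays read 71.2, 64.1 and 64.9 and the Apc-deficient arrays 163, 136 and 225, a 2.56-fold increase (adjusted p = 0.0080). On the same probe set double-deficient arrays read 139, 224 and 287 against 44.9 to 61.5 in p53-deficient mice, 4.02-fold higher (adjusted p = 0.0041). On 1422087_at the increases were 2.23-fold, 2.28-fold and 2.76-fold in the same order of comparisons (adjusted p = 0.021, 0.030 and 0.017), and these passed less steadily, since 5, 7 and 5 of 20 alternatives took them past 0.05. Mycl thus rose on all 3 probe sets.

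Mycn, which encodes N-MYC and is best known from neural tissue and neuroblastoma, was close to the limit of the array. Its one tested probe set (1417155_at) was detected on 1 of 12 arrays. The signals were 16.3, 26.6 and 13.4 in control, 18.8, 16.4 and 85.7 in Apc-deficient, 58.7, 73.8 and 53.2 in p53-deficient and 63.3, 53.5 and 58.8 in double-deficient intestines. The 6 p53-null arrays lay above the 3 control arrays, and Apc-deficient replicate 3 lay above all. No comparison passed the test, with an adjusted p of 0.17 for p53 loss alone and 0.054 for double-deficient against control. Without Apc-deficient replicate 3, whose value stands far from its 2 counterparts, these became 0.032 and 0.0066. That array belongs to neither comparison, so the log2 differences stayed at 1.77 and 1.70. What changed was the estimate of the spread that all groups share. The other 2 Mycn probe sets had a detection p of 0.366 or more on every array and were not tested.

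Max, the shared partner, did not pass the test in any comparison. Its single probe set (1423501_at) was detected on all 12 arrays, at 1266, 736 and 323.3 in control and at 374, 523 and 651 in Apc-deficient intestines. In p53-deficient mice it read 538, 1196 and 799, and in double-deficient mice 640, 484 and 561. The controls alone spanned more than the other groups, and control replicate 3, the array with pancreatic transcripts, was the lowest of the 12. For Apc loss the log2 difference was −0.41 (95% interval −1.43 to 0.60) with p53 and −0.52 (−1.54 to 0.49) without it, so a 2-fold decrease lies within both intervals.

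Mxd1 encodes MAD1, the repressor that replaces MYC on MAX as cells leave the cycle, and fell with loss of Apc. On its brightest probe set (1434830_at) the control arrays read 2886, 2600 and 2240 and the Apc-deficient arrays 542, 402 and 1072, a 4.16-fold decrease (log2 difference −2.06 ± 0.33 SE, limma adjusted p = 0.0026). The p53-deficient arrays were the highest of all, at 4827, 5204 and 4128, and the double-deficient arrays read 984, 677 and 630, a 6.28-fold decrease (−2.65 ± 0.33, adjusted p = 0.0024). No array without Apc reached any array with Apc. The p53-deficient and control ranges did not overlap either, but this 1.83-fold difference did not pass the test (adjusted p = 0.25).

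A second Mxd1 probe set (1455104_at) fell 2.04-fold with p53 present, from 1263, 895 and 813 to 418, 398 and 651 (adjusted p = 0.025). Without p53 it fell 5.86-fold, from 1504, 1742 and 951 to 238, 221 and 235 (adjusted p = 0.0016). The double-deficient arrays were below all Apc-deficient ones, yet neither that step (log2 difference −1.04, adjusted p = 0.12) nor the interaction (−1.52, adjusted p = 0.19) passed. With p53 present, 5 of 20 alternatives took this probe set past 0.05, and leaving out control replicate 1, Apc-deficient replicate 1 or Apc-deficient replicate 2 was enough. A further, dim probe set (1422002_at) was detected on 1 of 3 control arrays and on none without Apc, so no fold is given. Its fitted log2 difference between double-deficient and control intestines was −3.66 (adjusted p = 0.027), a call lost in 5 of 20 alternatives. It was not called for Apc loss with p53 (adjusted p = 0.22) or without it (0.087).

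Mxi1, a further MAX-binding repressor, fell beside Mxd1. On 1450376_at the control arrays read 1660, 2015 and 1810 and the Apc-deficient arrays 648, 870 and 1127, 2.12-fold lower (log2 difference −1.08 ± 0.25 SE, limma adjusted p = 0.010). In p53-deficient mice it read 3020, 2147 and 2070 and in double-deficient mice 692, 870 and 769, 3.07-fold lower (−1.62 ± 0.25, adjusted p = 0.0050). Arrays with and without Apc did not overlap. The dimmer 1425732_a_at ran from 397 to 504 in control and from 166 to 263 in Apc-deficient intestines, a 2.09-fold difference that just missed the threshold (adjusted p = 0.057). It was 2.54-fold lower in double-deficient than in p53-deficient intestines (adjusted p = 0.048), which 14 of 20 alternatives took past 0.05.

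**Figure D2:**
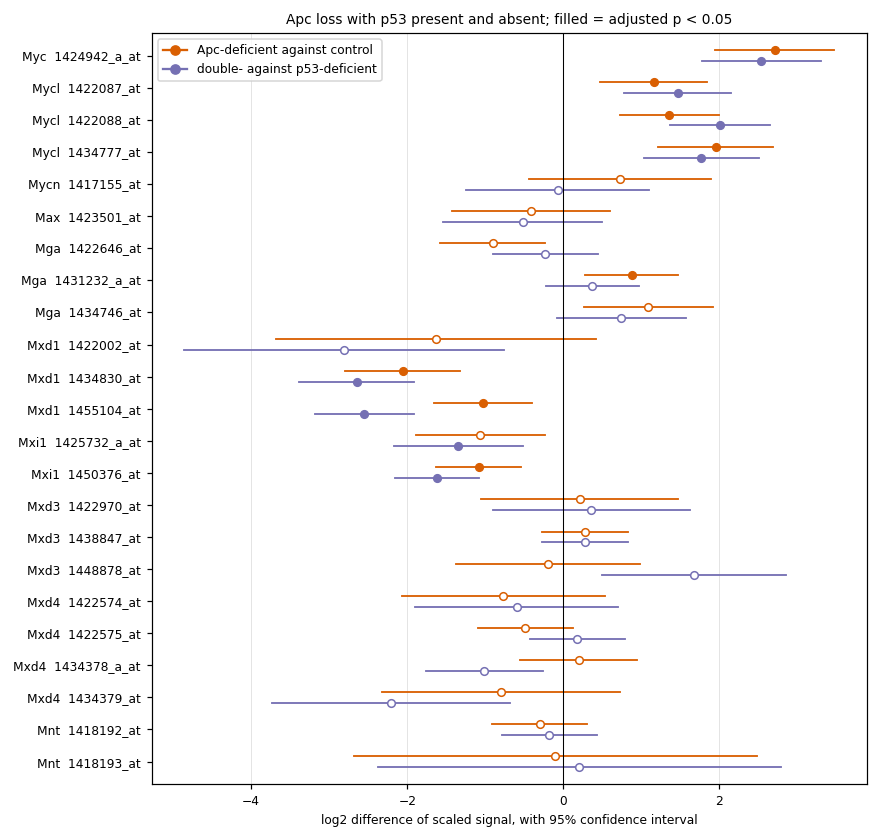
Log2 difference of scaled signal (points) with 95% confidence intervals (lines) for Apc loss with p53 present (Apc-deficient against control) and absent (double- against p53-deficient), for each of the 23 member probe sets tested. Filled points passed an adjusted p of 0.05: in both comparisons Myc and Mycl lie to the right and Mxd1 1434830_at, Mxd1 1455104_at and Mxi1 1450376_at to the left. Filled in a single comparison are Mga 1431232_a_at, to the right with p53 present, and Mxi1 1425732_a_at, to the left with p53 absent.

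The probe sets of Mga, the largest protein of the network, did not go one way. On 1431232_a_at the signal was 110, 87.7 and 102 in control and 254, 120 and 198 in Apc-deficient intestines, 1.83-fold higher (limma adjusted p = 0.037), a call lost in 8 of 20 alternatives. Without p53 it was 135, 107 and 147 with Apc and 165, 182 and 152 without, which did not pass (adjusted p = 0.43). On 1434746_at the log2 difference was 1.09 for Apc loss with p53 (adjusted p = 0.052) and 1.29 for double-deficient against control (adjusted p = 0.043), a call lost in 10 of 20 alternatives. On 1422646_at the sign was opposite, from 148, 121 and 82.3 in control to 62.1, 73.6 and 48.9 in Apc-deficient intestines (log2 difference −0.91, adjusted p = 0.0502, just above the threshold). No direction is given for the gene, since its probe sets can read different transcripts.

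The remaining repressors were low and none of their 9 probe sets passed in any comparison. Mnt, which is made in most cells and competes with MYC for MAX, read 254, 345 and 254 in control and 186, 366 and 174 in Apc-deficient intestines (1418192_at), and was detected on 2 of 12 arrays. Mxd3, a family member described in proliferating cells, read 127 to 210 in control and 169 to 225 in Apc-deficient intestines on 1438847_at and was detected on 8 of 12 arrays. Mxd4 read 57.6 to 89.1 on double-deficient arrays and 114 to 193 on p53-deficient ones on 1434378_a_at, ranges that did not overlap (log2 difference −1.01, adjusted p = 0.090). That probe set was detected on 0 of 3 double-deficient and 2 of 3 p53-deficient arrays. The Mxd4 probe set detected most often, 1422575_at (8 of 12 arrays), went the other way (0.18, adjusted p = 0.74). Mxd4 1422574_at and 1434379_at were lower there but undetected in both groups, so no direction is given for the gene. The probe sets 1434378_a_at and 1434379_at carry the name of a laminin gene in the array's own design, and Mxd3 1438847_at and 1448878_at, Mycl 1434777_at, Mxd1 1434830_at and 1455104_at and Mga 1434746_at carry only a clone or sequence-tag name. Their assignment to a member rests on the later platform table, and the brightest probe sets of Mycl and Mxd1 are among them. The second Mnt probe set, 2 of Mxd3 and 3 of Mxd4 were detected on 0 to 8 arrays.

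Of 15 genes of the nucleolus and ribosome assembly that are known to be induced by MYC, 15 passed as higher in Apc-deficient intestines, beside 18.4% of the 15850 genes read by 1 probe set each. This list and those below were chosen with earlier results of these data known, so their counts are a description and not an independent test. The median log2 difference of these 15 genes was 1.74, against 0.04 for all genes. Nop58, a core protein of box C/D ribonucleoproteins, went from 309 ± 55.3 (SD, n = 3) to 1078 ± 170 (log2 difference 1.80 ± 0.22 SE, limma adjusted p = 0.00083). Pes1, needed for the large ribosomal subunit, went from 205 ± 62.0 to 756 ± 61.8 (1.93, adjusted p = 0.0018), and Dkc1, the pseudouridine synthase, from 777 to 2619 (1.72, adjusted p = 0.0019). Gnl3, nucleostemin, rose by 1.74 (adjusted p = 0.0020).

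Against p53-deficient mice 11 of these 15 were higher in double-deficient ones, beside 4.75% of all genes, with a median of 1.28. Against control 12 were higher, beside 8.79%. Both counts rested on single arrays. Without double-deficient replicate 2, or without both arrays that carried pancreatic transcripts, they were 3 and 4, and without p53-deficient replicate 2 the count of 11 was 3. The count of 15 was 13 without both of those arrays. The count against p53-deficient mice was 5 without double-deficient replicate 3 and 7 without p53-deficient replicate 3, and the count against control was 7 without control replicate 1. No gene of this or the other lists passed for p53 loss alone, between double- and Apc-deficient intestines or in the interaction.

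Of 14 enzymes and carriers of polyamine, nucleotide and energy metabolism, 12 were higher in Apc-deficient intestines and 8 in double-deficient against p53-deficient ones. Of all genes 18.4% and 4.75% were higher in the same order. Ppat, the first enzyme of purine synthesis, rose by 2.63 on the log2 scale from 64.7 ± 30.7 to 368 ± 41.6 (adjusted p = 0.0010). Paics of the same pathway rose by 1.52, Ctps, which makes CTP, by 1.73 and Prps2, which makes the ribose donor, by 1.64 (adjusted p = 0.0019, 0.0021 and 0.0032). Ldha, lactate dehydrogenase, read 6556 ± 851 with Apc and 7183 ± 1310 without (adjusted p = 0.73), and Cad, which starts pyrimidine synthesis, had an adjusted p of 0.078. Without double-deficient replicate 2 or 3 the count of 8 was 3 or 5, and without p53-deficient replicate 2 or 3 it was 4 or 5.

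Cell cycle genes reported as MYC-induced gave 7 of 12 higher with Apc loss and p53 present and 4 with p53 absent, where E2f2 was lower. In these comparisons 18.4% and 4.75% of all genes were higher. Cul1, Mcm4, Ccnd2 and Mcm7 led, with log2 differences of 1.35, 1.60, 1.48 and 1.51 (adjusted p = 0.0014, 0.0015, 0.0016 and 0.0040). Of these Cul1, a scaffold of ubiquitin ligases, did not pass without p53 (0.34, adjusted p = 0.29). General proliferation genes were higher in 10 of 13 with p53 present, where Mcm6 rose by 1.75 (adjusted p = 0.00080), and in 3 of 13 without p53, beside the same shares of all genes. The count of 10 was 6 without control replicate 1, and that of 3 was 1 without double-deficient or p53-deficient replicate 2 or 3.

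Genes reported as repressed by MYC did not move together. Of 12, 1 was lower and 1 higher in Apc-deficient intestines, where 12% of all genes were lower and 18.4% higher. The one that fell was Cdkn2b, the p15 inhibitor of CDK4, from 981 ± 102 to 223 ± 120 (log2 difference −2.32 ± 0.39 SE, limma adjusted p = 0.0031). It also fell, from 1292 ± 62.9 to 145 ± 26.1, when Apc was lost without p53 (−3.17, adjusted p = 0.0023). The one that rose was Gadd45g, a stress and growth arrest gene that was undetected in control and seen on 2 of 3 Apc-deficient arrays (adjusted p = 0.0079). Cdkn1a, the p21 inhibitor and a target of both MYC and p53, read −0.51 (adjusted p = 0.24).
Without p53, 3 were lower, beside 6.43% of all genes, and 1 higher, beside 4.75%. Those lower were Cdkn2b, Klf4, a factor of differentiated epithelium (−1.99, adjusted p = 0.0041), and Ndrg2 (−0.89, adjusted p = 0.048). The one higher was Clu, clusterin (2.47, adjusted p = 0.047). Against control 2 were lower in double-deficient mice, beside 7.52%. Omission of Apc-deficient replicate 2 took the Apc-deficient counts to 3 higher and 2 lower. The call of Clu was lost without any 1 of 8 arrays.

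**Figure D3:**
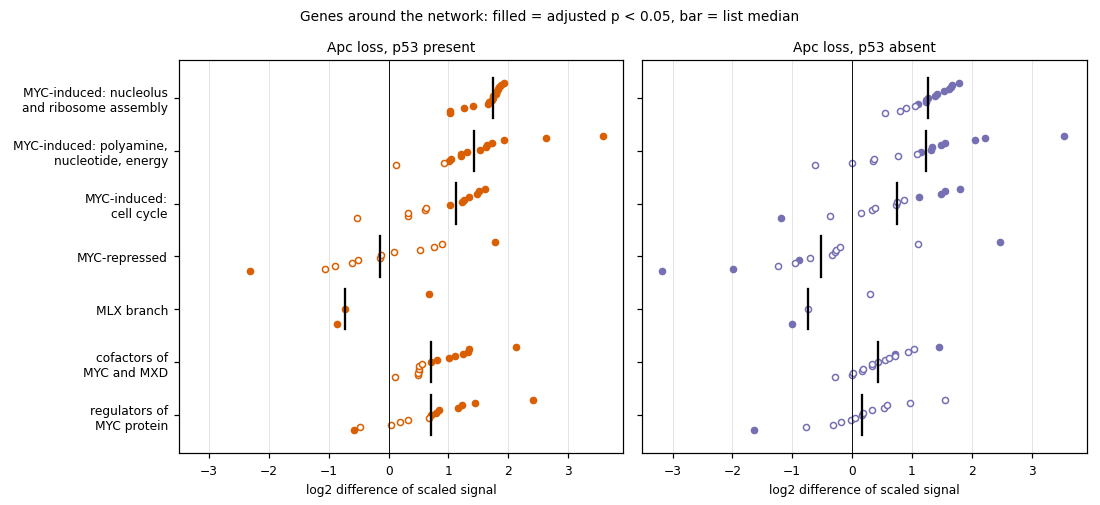
Log2 difference of scaled signal for the genes of 7 lists around the network, 1 point for each gene and a bar at the list median, for Apc loss with p53 present (left) and absent (right), with filled points past an adjusted p of 0.05. All 15 nucleolar genes lie to the right of 0 in both panels, while the 12 genes reported as MYC-repressed lie on both sides.

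MLX is the second hub of the wider network and pairs with the MONDO proteins and with MXD1, MXD4 and MNT. Mlx fell from 753 ± 75.8 to 452 ± 45.1 in Apc-deficient intestines (log2 difference −0.74 ± 0.19 SE, limma adjusted p = 0.017) and from 846 ± 103 to 423 ± 44.9 without p53 (−0.996, adjusted p = 0.011). Mlxipl, the carbohydrate response factor ChREBP, was lower (−0.86, adjusted p = 0.036) and Mlxip, MondoA, higher (0.67, adjusted p = 0.045) with p53 present, and neither passed without it. Omission of single arrays took each of the calls with p53 present past the threshold at least once.

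Of 15 cofactors of MYC and MXD proteins, 9 were higher in Apc-deficient intestines, beside 18.4% of all genes. In double- against p53-deficient ones 2 were higher, beside 4.75%. Kat2a, the GCN5 acetyltransferase, rose from 243 ± 45.1 to 1063 ± 155 (log2 difference 2.14 ± 0.26 SE, adjusted p = 0.00083) and Wdr5, which anchors MYC on chromatin, from 473 ± 38.8 to 1206 ± 119 (1.35, adjusted p = 0.0011). Both also passed without p53 (1.46 and 0.72, adjusted p = 0.0084 and 0.029). Among the partners of MXD proteins Hdac2 was higher by 1.33 and Hdac1 by 0.72, and Sin3a by 0.50 (adjusted p = 0.0044, 0.025 and 0.048), whereas Sin3b and Ncor1 did not pass (adjusted p = 0.115 and 0.0785). The count of 9 was 3 without control replicate 1 and 4 without Apc-deficient replicate 3. The count of 2 was 1 without any one double-deficient array or p53-deficient replicate 2 or 3, 4 without p53-deficient replicate 1, and 0 without both arrays that carried pancreatic transcripts.

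Regulators of MYC protein gave 7 of 13 higher and 1 lower with p53 present, beside 18.4% and 12% of all genes. Both a brake and its counterpart were among them: Fbxw7, the ubiquitin ligase subunit that marks MYC for degradation, rose by 0.79 on the log2 scale (adjusted p = 0.013), and Usp28, which removes that mark, was undetected in control and detected on all Apc-deficient arrays (57.9 ± 13.3 and 156 ± 26.5, adjusted p = 0.0051). Axin1, which helps MYC turnover and is also a Wnt pathway scaffold, rose by 1.23 (adjusted p = 0.0058). Cip2a, a phosphatase inhibitor that protects MYC, was detected on 1 of 12 arrays (adjusted p = 0.025). Bin1, a MYC-binding inhibitor, was the one lower (−0.58, adjusted p = 0.046), a call lost when any of 11 of the 12 arrays was left out. Without p53 the only call was Pim1, a kinase of MYC, which fell by 1.64 (adjusted p = 0.0070), where 4.75% of all genes were higher and 6.43% lower. The count of 7 was 3 without control replicate 1 or 3 and 4 without Apc-deficient replicate 1 or 3.

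The 5 genes whose log2 signals followed Myc most closely over the 12 arrays were Pop1 (Pearson r = 0.981), Snhg5 (0.980), Dnaaf2 (0.979), Nop16 (0.975) and Cd44 (0.974), out of 10968 genes detected on all arrays of at least 1 genotype. Pop1, a subunit of the RNA-processing enzymes RNase P and MRP, had mean scaled signals of 90.8 in control and 245 in Apc-deficient mice, and without p53 of 80.4 with Apc and 223 without it (3 mice each). Among the members Mycl followed Myc at r = 0.873, Mga at 0.707 and Mxd3 at 0.473, and Mxd1 and Mxi1 ran opposite at −0.926 and −0.856. Max gave −0.553, and Mycn, Mnt and Mxd4, below the detection limit set for ranking, 0.140, −0.337 and −0.412. The 12 arrays share their split into arrays with and without Apc, and these values are a description of that order and carry no test.

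Marker levels moved with the members. The summed scaled signal of 9 absorptive enterocyte genes was 40280 to 50038 in control and 61403 to 68924 in p53-deficient intestines, and 16650 to 41418 in Apc-deficient and 17976 to 30119 in double-deficient ones, with 3 of 9 genes lower for Apc loss with p53 (Slc2a5, Lct and Slc5a1, the first by 2.21) and 6 of 9 without. On their brightest probe sets the means of Mxd1 and Mxi1 likewise were highest in p53-deficient, then control, and lower in both groups without Apc. The difference between p53-deficient and control mice did not pass limma's test for either (adjusted p = 0.25 and 0.47). The dim Mxd1 1422002_at ran the other way there, with means of 185 in control and 138 in p53-deficient mice. On Mxi1 1425732_a_at the p53-deficient range, 250 to 821, enclosed that of control. The sum of 13 proliferation genes was 8556 to 12711 in control and 8663 to 15282 in p53-deficient mice against 20356 to 24434 and 17790 to 23064 without Apc, and Myc and Mycl too were higher on all arrays without Apc. The lymphocyte sum was 10168 to 11428 in control, 12637 to 15587 in p53-deficient, 4105 to 7783 in Apc-deficient and 7291 to 9786 in double-deficient intestines. Of 9 such genes 4 were lower in Apc-deficient intestines and 2 without p53. Beside these enterocyte and lymphocyte counts, 12% of all genes were lower for Apc loss with p53 and 6.43% without. Without control replicate 1 the enterocyte and lymphocyte counts with p53 were 1 and 2, without Apc-deficient replicate 1 the former was 1, and without double-deficient replicate 3 or p53-deficient replicate 2 the enterocyte count of 6 was 3. The lymphocyte count of 2 without p53 was 0 without double-deficient replicate 2 or 3, p53-deficient replicate 1 or 2, or both arrays with pancreatic transcripts. Smooth muscle sums overlapped between all groups, and 0 of 10 genes passed in any of the 3 comparisons of Apc loss or of double-deficient with control mice. Of the pancreatic genes Cpa1, Cpb1 and Ctrb1 were detected on 1 control and 1 double-deficient array. Of 8 other Wnt targets of the crypt, 7 were higher for Apc loss with p53 and 8 without, beside 18.4% and 4.75% of all genes. They were led by Sox9 (log2 difference 1.91, adjusted p = 0.00049), Rnf43 (2.45), Lgr5 (1.75) and Axin2 (2.03). The part of these cells in the members' differences was not tested, and in whole tissue fewer cells of a type and less transcript per cell cannot be told apart.

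**Figure D4:**
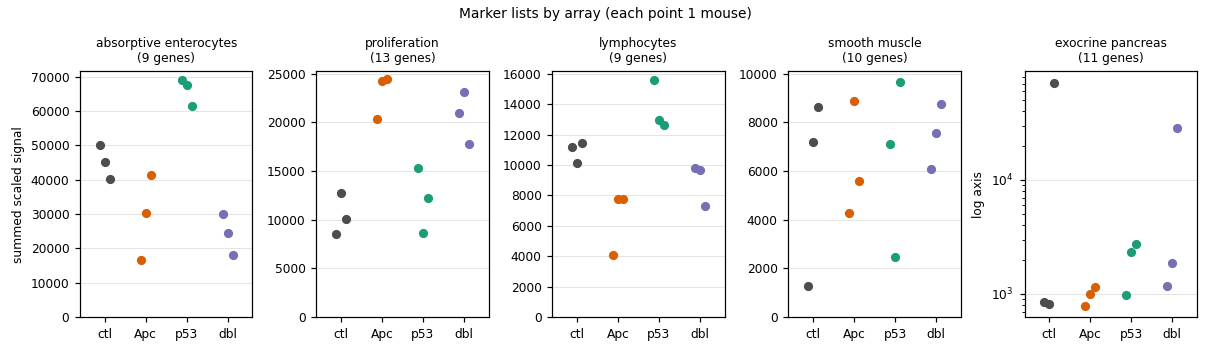
Summed scaled signal of 5 marker lists for each mouse in control (ctl), Apc-deficient (Apc), p53-deficient (p53) and double-deficient (dbl) intestines, on linear axes except for exocrine pancreas, which has a log axis. Enterocyte sums are highest in p53-deficient mice (61403 to 68924), proliferation sums are at least 17790 on all 6 arrays without Apc and at most 15282 on the others, and 2 arrays carry pancreatic transcripts.

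Without both arrays that carried pancreatic transcripts, 5 of 23 member probe sets passed for Apc-deficient against control, 2 for double-deficient against control and 5 for double- against p53-deficient intestines. The share of all probe sets that passed there is not given, so a fall particular to the members cannot be told from a general one. In that setting Myc still passed in all 3, with log2 differences between 2.43 and 2.83. The 2 probe sets that passed for double-deficient against control were those of Myc and Mxd1 1455104_at, while Mxd1 1434830_at and Mxi1 1450376_at missed there (adjusted p = 0.067 and 0.081) and passed in both comparisons of Apc loss. All 3 Mycl probe sets missed for double-deficient against control in that setting (1434777_at 0.054, 1422088_at 0.067 and 1422087_at 0.17, as adjusted p). For double- against p53-deficient intestines Mycl 1434777_at (adjusted p = 0.063) and 1422087_at (0.096) missed and 1422088_at passed (0.035), and for Apc loss with p53 1422087_at missed (0.055). The count of 8 for Apc loss with p53 was 5 without Apc-deficient replicate 1, and that of 10 was 6 without control replicate 1, control replicate 2 or double-deficient replicate 2. The count of 8 without p53 was 5 without double-deficient replicate 2. The arrays of each genotype carry a column code of their own, and p53-null and p53-positive arrays differ in its letters, so a run effect and the genotype cannot be told apart.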

How the data were processed

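The authors deposited probe set signals (linear intensity, before their normalisation) and detection p-values for 12 arrays, and a table of 34271 probe sets whose values are a score, the log signal of each array standardised to its own mean and spread. A detection p below 0.2 on 2 or more arrays describes exactly the rows of that table. The software behind the signals was not given in the sources used here. The number of arrays limits the precision.

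Control spots (64) were removed, signals under 1 were set to 1 (895 tested values), and each array was centred on its mean log2 signal, after the methods of the study. Every probe set whose detection p fell below 0.2 anywhere was tested with limma 3.58.1 in R 4.3.3, in 1 model with a mean for each of 4 genotypes (8 residual degrees of freedom), with Benjamini-Hochberg adjustment over all 36336. The study's methods used SAM. For a gene with several probe sets the brightest of those not ending in _s_at or _x_at stood for it. Where all ended so, the brightest of them was used. Of all probe sets 27549 were named by the platform table and 4352 by the gene identifier in the description, 754 had several genes and 12446 none. Alternatives were quantile normalisation, the deposited scores, other screens, a floor of 20, a variance trend, only the genotypes compared, omission of each array, and omission of both arrays with pancreatic transcripts. From each list up to 4 genes with the smallest p in Apc-deficient against control were to be named, and other list genes were named after their values had been seen. As most like Myc, the 5 genes with the highest r were taken. The same alternatives for the lists were added after the data had been seen. The members and lists were chosen with earlier results of these data known.

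The double-deficient detection columns carry no mouse number, so detection is given as counts per genotype. The labels name single mice, 1 for each array. Fits were tested on simulated data. Tables and figures were made with Python 3.11.15, pandas 2.3.3, numpy 2.4.6 and matplotlib 3.10.9.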

Additional observations from a re-analysis of the deposited data

How the results depend on the processing

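Of 26 member results past the threshold, 12 kept their call in all 20 alternatives, and none changed sign. A call was lost in 75 of 520 such fits. Of 112 results that had not passed, 99 never passed with the same sign in an alternative, and 48 changed sign in at least 1. With 1 array left out the counts of member probe sets ran from 5 to 10 for Apc-deficient against control, from 0 to 1 for p53-deficient against control, from 6 to 12 for double-deficient against control and from 5 to 9 for double- against p53-deficient. The 1 for p53 loss was Mycn without Apc-deficient replicate 3. With control replicate 3 and double-deficient replicate 3 both left out the counts were 5, 0, 2 and 5. Shares of all probe sets are not given for the alternatives, so these counts have no background beside them. Double- against Apc-deficient intestines and the interaction gave 0 in every alternative. The single sign change that involved a passed test was Mnt 1418193_at, undetected on all arrays, which moved to 0.64 on the log2 scale for Apc-deficient against control (adjusted p = 0.030) when signals under 20 were set to 20. The cause was not tested. A fit of only the genotypes compared does not exist for the interaction. No paired analysis was possible because the labels give no replicate numbers that the genotypes share. Signal over background limits Mycn, Mnt and Mxd4, whose brightest tested probe sets were detected on 1, 2 and 3 of 12 arrays.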
